A study of Mus musculus with 5 samples.

Results

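The Id genes Id1, Id2 and Id3 were followed in mouse epiblast stem cells through all probes that the platform annotation assigns to these symbols. These 3 genes are among 16593 with a symbol on the array, and they have 4 of its 25697 probes, 1 for Id1 (ILMN_2672190), 2 for Id2 (ILMN_1228557 and ILMN_2887239) and 1 for Id3 (ILMN_2687169). The cells were of the line E3, which one label gives as having a hybrid background, and had been kept in KSR medium containing FGF2 at 5 ng/ml, over CF1 mouse fibroblasts that no longer divide. The medium was then exchanged for 3 h once the cultures were semiconfluent. The PD culture received 1 uM PD0325901, an inhibitor of the ERK kinase MEK, and the CH culture 3 uM CHIR99021, an inhibitor of GSK3. The LIF culture received 1000 U/ml of the cytokine LIF, the PCL culture received all 3 agents at these doses, and the untreated culture received KSR medium without supplements. The new media are listed without FGF2, and the labels name no added BMP in any of them. There was 1 bead array for each condition, read in a single colour, so no difference between conditions has a replicate check.

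Id proteins are helix-loop-helix proteins that lack a DNA-binding basic region. They pair with E proteins and so keep other basic helix-loop-helix factors from binding DNA. BMP ligands activate receptor kinases that phosphorylate Smad1, Smad5 and Smad9, and these enter the nucleus with Smad4 and switch on Id1, Id2 and Id3 as direct targets. In mouse embryonic stem cells, Id induction by BMP is known to support self-renewal together with LIF and to restrain neural differentiation. Because the series holds no BMP-treated array, it cannot show whether the Id genes respond to BMP in these cells.

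The promoters of Id2 and Id3 are shown because Smads act on Id genes through short motifs in their regulatory DNA. Id1 had no entry in the promoter set used, so its promoter was not searched. The stretches are the 250 bases before the RefSeq gene start in GRCm38.p6, printed 5′ to 3′ along the gene. Capitals mark GGCGCC, a GC-rich element bound by BMP Smads, and GTCT or its reverse complement AGAC, the core of a Smad-binding element.
Id2, chr12:25096093-25096342, minus strand: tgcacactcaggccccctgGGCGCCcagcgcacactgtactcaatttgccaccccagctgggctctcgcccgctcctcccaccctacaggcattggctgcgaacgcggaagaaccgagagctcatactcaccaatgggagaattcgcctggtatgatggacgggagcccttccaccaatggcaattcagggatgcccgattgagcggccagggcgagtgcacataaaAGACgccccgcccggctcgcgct
Id3, chr4:136143572-136143821, plus strand: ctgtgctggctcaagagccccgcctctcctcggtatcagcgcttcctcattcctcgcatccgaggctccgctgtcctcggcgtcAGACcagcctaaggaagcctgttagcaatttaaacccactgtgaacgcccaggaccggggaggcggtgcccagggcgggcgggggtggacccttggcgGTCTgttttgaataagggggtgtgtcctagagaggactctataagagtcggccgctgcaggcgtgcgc

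On both strands, GGCGCC occurred 1 time in the Id2 stretch and 0 times in the Id3 stretch, and 9.59% of 32851 promoter stretches of this length held it. GTCT occurred 1 time for Id2 and 2 times for Id3, and 82.9% of all stretches held it, so its presence sets neither gene apart. The Egr1 motif GCGNGGGCG (in 4.70% of all stretches), the STAT motif TTCNNNGAA (7.02%) and the TCF/LEF motif CTTTGA (13.8%), searched on both strands for the factors downstream of MEK, LIF and GSK3, occurred 0 times in either. The searched motifs do not overlap one another in these stretches. These matches describe letters in a window and do not show binding.

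The Id transcripts were at the lower edge of what the arrays could measure. A probe counted as detected at a detection p-value under 0.01, which compares its signal with the negative controls of the same array. Id1 was detected on all 5 arrays, with a detection p-value of 0 on each of the 5. Its signal was 111 ± 4.55 with PD, 101 ± 3.77 with CH, 109 ± 3.86 with LIF, 97.0 ± 3.17 with PCL and 123 ± 3.87 on the untreated array (± bead standard error, which covers the measurement on 1 array only). This was 1.24 to 1.47 times the median signal of undetected probes.

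Id3 was also detected on all 5 arrays, but with less margin. Its signal was 91.7 ± 3.21 with PD, 98.9 ± 4.20 with CH, 96.4 ± 3.46 with LIF, 95.2 ± 4.16 with PCL and 119 ± 5.98 on the untreated array. On the PD array its detection p-value was 0.00877, just inside the limit, and its signal was 1.00 times the lowest signal detected there. The signal was 1.16 to 1.43 times the median of undetected probes over the arrays.

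For Id2 the probes differed. ILMN_1228557 was detected on 4 of 5 arrays, with a signal of 95.1 ± 3.07 with PD, 96.0 ± 2.88 with CH, 103 ± 4.30 with LIF and 108 ± 2.97 on the untreated array. On the PCL array it was not well above background, with a signal of 83.2 ± 2.19, a detection p-value of 0.0802 and a signal 0.941 times the lowest one detected there. ILMN_2887239, assigned to the same gene, was detected on 0 of 5 arrays, with signals of 74.1 to 80.8 and detection p-values of 0.226 to 0.970. The pattern of Id2 therefore rests on 1 probe and has no second reading. Such a split was common on this platform. Of 1482 genes with 2 probes and 1 of them detected on at least 4 arrays, 513 had a second probe that was detected on 0 arrays, which is 34.6%. Id1 and Id3 have 1 probe each, so agreement between probes could not be examined for them. The fourth family member Id4, which is not among the genes followed here, was detected on 0 of 5 arrays, with signals of 78.3 to 84.1.

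**Figure D1:**
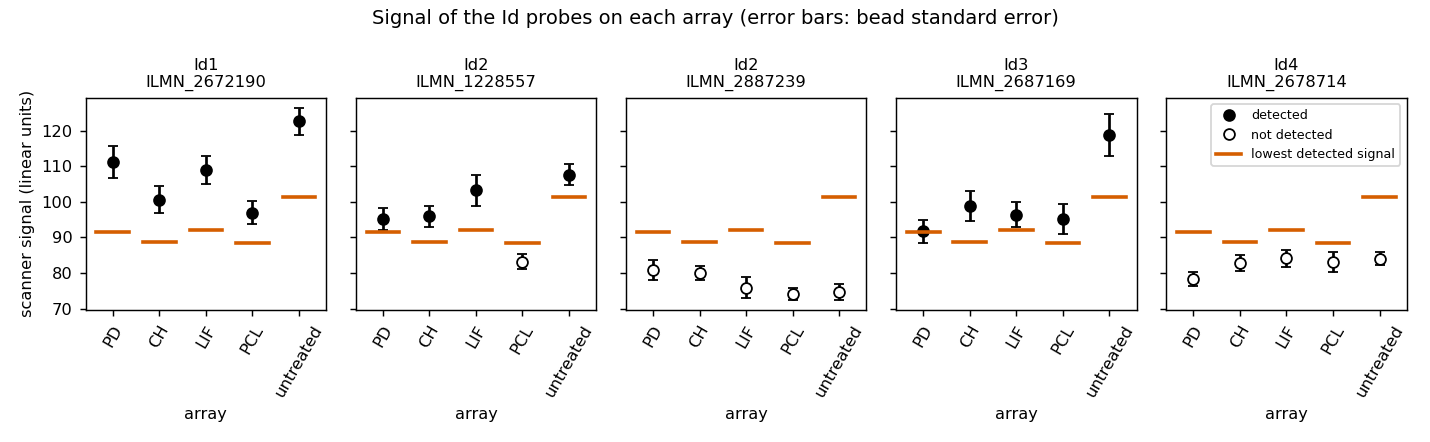
Scanner signal in linear units (y axis, not starting at 0) of the 4 Id1, Id2 and Id3 probes and the Id4 probe on the PD, CH, LIF, PCL and untreated arrays. Filled points are detected, open points are not, bars are the bead standard error and horizontal strokes mark the lowest detected signal of each array. Id1 lies above the stroke on all 5 arrays, Id3 sits on it with PD, Id2 probe ILMN_1228557 drops under it with PCL, and ILMN_2887239 and Id4 stay under it throughout.

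All 3 detected Id probes had their highest raw signal on the untreated array. Across all probes the 75th percentile of the signal was 137 to 153 on the treated arrays and 178 on the untreated one, so levels were compared after background correction and quantile normalization, on a log2 scale with an offset of 16. The offset keeps dim probes stable and compresses their differences. Between 39.4% and 42.7% of all probes were detected per array. Egr1, an immediate early target of ERK, fell with PD (log2 difference from untreated -3.68), the Wnt target Sp5 rose with CH (3.03), and the STAT3 feedback gene Socs3 rose with LIF (1.95), each past the additive fit over all probes. These genes also passed for a second agent. The fit effect was -0.50 for Egr1 with LIF (limma adjusted p = 0.0136) and 0.76 for Sp5 with LIF (limma adjusted p = 1.19e-07). For Socs3 with PD it was -0.69 (limma adjusted p = 2.4e-05). The matching differences from untreated, which were not tested, were -1.30, 0.85 and -0.86. The epiblast markers Pou5f1, Sox2, Nanog, Fgf5, Otx2 and Pou3f1 were detected on every array (6 of 6 genes). Of 14 measured fibroblast markers for the feeder layer, 10 were detected on at least 1 array, among them Dcn and Col1a1, while Col1a2, Col3a1, Postn and Pdgfrb were detected on 0 of 5. Their summed linear level was 7267 to 7848 on the treated arrays and 7351 on the untreated one. Between 73.0% and 78.7% of it came from Acta2, Sparc and Vim, which other cell types also express and which were singled out after their values were seen. The other 7 summed to 1595 with PD, 1963 with CH, 1867 with LIF, 1985 with PCL and 1985 on the untreated array. Of the whole list Col6a1 alone passed the fit, lower with PD (fit effect -0.42, limma adjusted p = 0.0284). Its difference from untreated with PD was -0.58. The part of feeder RNA in the Id values was not tested. Id transcripts of feeder cells cannot be told apart from those of the epiblast stem cells, and in such bulk RNA fewer expressing cells and less RNA per cell cannot be told apart either.

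Id1, an early and direct BMP target in many cell types, was highest with PD and lowest with PCL. Its normalized log2 level was 5.79 with PD, 5.36 with CH, 5.45 with LIF, 5.22 with PCL and 5.51 on the untreated array. Against untreated the log2 difference was 0.28 ± 0.17 with PD, -0.15 ± 0.18 with CH, -0.06 ± 0.16 with LIF and -0.28 ± 0.16 with PCL (± bead SE, 1 array per group). None of these 4 differences exceeded 2 bead standard errors. In order of level the arrays ran from PD through untreated, LIF and CH to PCL, and no neighbours in that order differed by more than 2 bead standard errors. The ends of the order did, since Id1 was -0.56 ± 0.19 with PCL against PD. PD against CH also did, at 0.43 ± 0.21. A size of at least 0.56 between PCL and PD was reached by 6.06% of all probes detected on either array.

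Id2 was nearly level on the PD, CH, LIF and untreated arrays and not measurable with PCL. The log2 level of ILMN_1228557 was 5.17 with PD, 5.16 with CH, 5.25 with LIF and 5.10 on the untreated array. The differences from untreated were 0.07 ± 0.18 with PD, 0.05 ± 0.16 with CH and 0.14 ± 0.18 with LIF, all smaller than their bead standard errors. On the PCL array the measured log2 level was 4.51, under the lowest detected level of 4.81. Taking that lowest level in its place, Id2 was at least 1.23-fold lower with PCL than untreated, at least 1.29-fold lower than with PD, 1.27-fold lower than with CH and 1.36-fold lower than with LIF, all as bounds. These bounds take the level of the other array as exact and carry no error. Against untreated the bound is -0.30 in log2, near in size to the SD of 0.29 that the additive fit below gave a difference of 2 arrays. The loss of detection with PCL held at a detection limit of 0.05 as well.

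Id3, which responds to BMP alongside Id1, was highest on the untreated array and lower on all 4 treated arrays. Its log2 level was 4.99 with PD, 5.29 with CH, 4.96 with LIF, 5.14 with PCL and 5.41 on the untreated array. Against untreated the difference was -0.42 ± 0.24 with PD, -0.12 ± 0.23 with CH, -0.45 ± 0.21 with LIF and -0.26 ± 0.24 with PCL. Only the difference with LIF exceeded 2 bead standard errors, and a difference at least that large in size was found for 6.46% of the 11255 probes compared. The 4 differences share the untreated array, so their common sign is not 4 separate observations. No neighbours in the order untreated, CH, PCL, PD and LIF differed by more than 2 bead standard errors. With PCL, Id3 differed by 0.15 ± 0.26 from PD and by 0.18 ± 0.24 from LIF.

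The point values of the 3 genes ordered the arrays differently, and whether their patterns differ was not tested. With PD, Id1 was above untreated and Id3 below it. With LIF, Id3 was below untreated while Id2 was close to it. With PCL the measured values of all 3 lay below untreated, Id2 as a bound. Of the 11 differences from untreated with both arrays detected, 0 reached 2-fold, and Id2 with PCL is a bound with no lower limit and was not counted. Of all probes compared, 0.675% reached it with PD, 0.168% with CH, 0.0800% with LIF and 0.966% with PCL. With so few probes past 2-fold in general, 0 of 11 does not set the Id genes apart. Over all 10 pairs of arrays for each gene, 3 of the 26 differences with both arrays detected exceeded 2 bead standard errors.

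**Figure D2:**
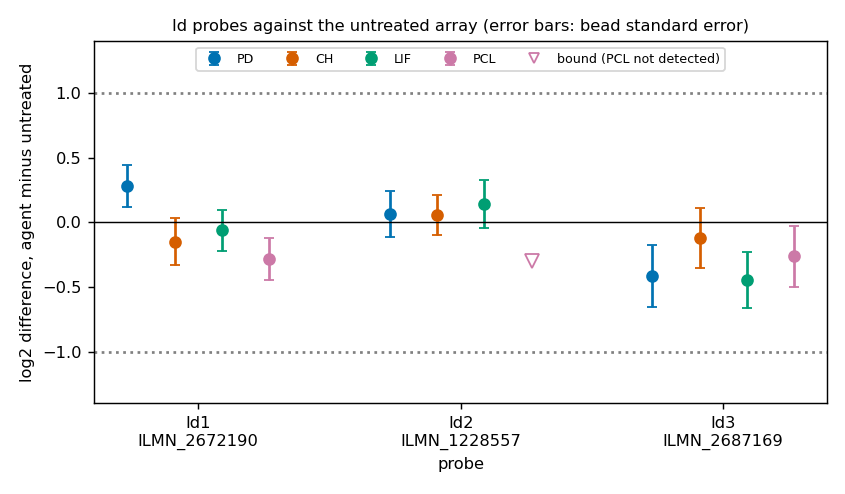
Log2 difference from the untreated array (y axis) of the 3 detected Id probes (x axis) for PD, CH, LIF and PCL, with the bead standard error as bars and 2-fold as dotted lines. The open triangle is the bound for Id2 with PCL, which was not detected there. Among the values with both arrays detected, Id3 with LIF is the lowest at -0.45 and Id1 with PD the highest at 0.28, and Id2 with PCL has no lower limit.

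The fit used across all features was an additive limma model with 1 term per agent, run on 12049 probes detected on at least 1 array. It leaves 1 residual degree of freedom, its error is how far PCL departs from the single agents added up, and limma put the prior degrees of freedom at infinity, so probes of like intensity share 1 spread and its p-values do not measure variation between cultures. Of the 9 effects of the detected Id probes, 0 had an adjusted p under 0.05 in limma (Benjamini-Hochberg over all probes), and 0 had an unadjusted p under 0.05. Of all probes tested, 2.56% passed for PD, 1.22% for CH and 0.722% for LIF. The Id effects were 0.15 to 0.28 in size, with adjusted p-values of 0.58 to 0.939. For Id1 they had the signs of its differences from untreated. For Id2 they were -0.25 for PD, -0.27 for CH and -0.18 for LIF, opposite in sign to its differences with these agents, and they draw on the undetected PCL value. For Id3 the CH effect was 0.15, also opposite in sign to its difference with CH. Id1 had an effect of -0.28 ± 0.17 for CH (SE of the fit, limma adjusted p = 0.58), which was the largest of them in size. For Id3 the LIF effect was -0.17 ± 0.19 (limma adjusted p = 0.937), smaller in size than the difference with LIF alone, and it also draws on the PCL array. At their intensity the model gave a difference of 2 arrays an SD of 0.26 for Id1, 0.29 for Id2 and 0.28 for Id3, which is larger than the bead errors given above. An effect that misses the threshold here is not shown to be 0.

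The combination was set against the sum of the single agents for each gene. For Id1 the PCL difference of -0.28 stood against a sum of 0.07, a departure of -0.36 ± 0.33 (bead SE). For Id3 the PCL difference of -0.26 stood against a sum of -0.98, a departure of 0.72 ± 0.46. For Id2 the single agents summed to 0.26 and the PCL level was under the detection limit, so its departure is only bounded, at -0.56 or lower with the lowest detected level in place of the measured one. This bound carries no error either. Under the additive model the SD of such a departure is 0.52 for Id1, 0.58 for Id2 and 0.56 for Id3, and the median size over all probes tested was 0.29. The departures of Id1 and Id3 were thus under 2 of either error. The bound of Id2 was smaller in size than its SD, and the departure itself has no lower limit.

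The rest of the BMP pathway was read from lists of 41 genes, of which 39 had a named probe and 25 were detected on at least 1 array (brightest probe of each gene). Among the ligands, 3 of 8 were detected on any array and 2 on all of them. Bmp4, the ligand used most often to induce Id genes in mouse pluripotent cells, was 0.29 ± 0.18 with PD, 0.30 ± 0.18 with CH, -0.20 ± 0.18 with LIF and -0.19 ± 0.17 with PCL against untreated. Bmp7 stayed between -0.17 and 0.14. In the additive fit 0 of the 3 detected ligands passed for any agent.

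Of 7 receptor and co-receptor genes 5 were detected, and 0 passed the fit. The type II receptor Acvr2b was -0.31 ± 0.06 with PD, -0.31 ± 0.06 with CH, -0.22 ± 0.07 with LIF and -0.17 ± 0.07 with PCL. Each was over 2 bead standard errors, and they share the untreated array. Its fit effects were -0.06 for PD, -0.05 for CH and 0.03 for LIF. A shift common to all treated arrays enters the fit only in part, so missing the threshold does not show a level gene. The type I receptor Bmpr1a was 0.05 to 0.20. The BMP signal transducers Smad1 and Smad5 and their partner Smad4 were detected on all 5 arrays, Smad9 on 0, and 0 of the 3 passed. Smad1 was 0.29 ± 0.11 with PD, 0.13 ± 0.10 with CH, 0.25 ± 0.10 with LIF and 0.26 ± 0.12 with PCL, over 2 bead standard errors for PD, LIF and PCL, and these differences share the untreated array. Smad5 lay within -0.07 to 0.02 of untreated and Smad4 within -0.10 to 0.18.

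The BMP inhibitors held the only pathway genes that passed. Of 12 measured inhibitors 9 were detected; 2 fell with PD, 1 rose with CH and 0 passed for LIF, where 1.78% of all probes fell with PD and 0.647% rose with CH. Chordin (Chrd), a secreted protein that binds BMPs, had a log2 level of 5.97 with PD, 6.54 with CH, 6.52 with LIF, 6.21 with PCL and 7.09 on the untreated array. It was thus highest on the untreated array and fell with PD, with a log2 difference of -1.12 ± 0.14 against untreated and a fit effect of -0.61 (limma adjusted p = 0.00196). Follistatin (Fst), which binds activin and also BMPs, had a level of 7.67 with PD, 10.66 with CH, 8.47 with LIF, 9.50 with PCL and 9.34 on the untreated array, and it fell with PD and rose with CH. The fit effect of Fst was -1.16 for PD (limma adjusted p = 3.57e-20) and 1.84 for CH (limma adjusted p = 1.31e-51). The call of Chrd was lost without the intensity trend (limma adjusted p = 0.0663). On the authors' deposited values the effects were -0.76 for Chrd with PD, -1.20 for Fst with PD and 1.89 for Fst with CH, and none passed there (limma adjusted p = 0.712, 0.663 and 0.644). Gremlin 1 (Grem1), another BMP-binding antagonist, was 0.18 ± 0.17 with PD, 0.86 ± 0.16 with CH, 0.48 ± 0.20 with LIF and 0.52 ± 0.16 with PCL, and its CH effect did not pass (limma adjusted p = 0.0652). Twsg1, the brightest of the measured inhibitors, was 0.31 ± 0.09 with PD, 0.33 ± 0.08 with CH, 0.02 ± 0.08 with LIF and 0.34 ± 0.08 with PCL. It passed the fit for no agent, and these differences share the untreated array. The inhibitory Smad6, itself a BMP target, was detected on 3 of 5 arrays. Noggin (Nog) was detected on none of the 5.

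Other known BMP targets were mostly at or under the detection limit. Of 8 such genes 5 were detected on any array and 1 on all of them, and 0 passed the fit. Hey1, a Notch and BMP target, was the brightest and lay within -0.20 to -0.04 of untreated. Msx1 was detected on 3 arrays and Tbx3 on 4, while Msx2, Dlx5 and Tbx20 were detected on 0. Msx1 missed detection on the untreated array, so its log2 differences are bounds of at least 0.19 with CH, 0.50 with LIF and 0.43 with PCL. Gata2 and Gata3 were detected on 1 array each. Too few of the 5 had both arrays detected to give a median. Among E proteins, the dimer partners of Id proteins, Tcf4 lay within -0.12 to 0.06 of untreated and Tcf12 within -0.26 to 0.05, and 0 of 2 measured genes passed. Neural markers, of which Id proteins are known to restrain the onset, were detected for 1 of 5 measured genes, Nes, and it did not pass.

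**Figure D3:**
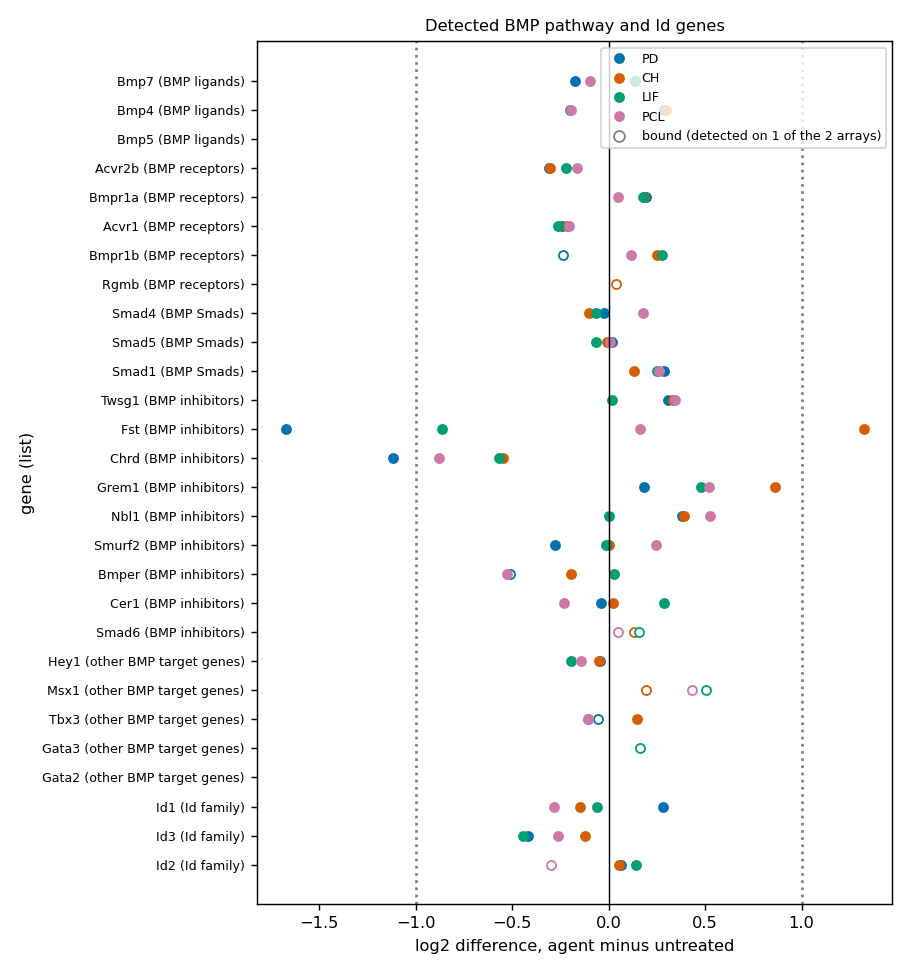
Log2 difference from the untreated array (x axis) for PD, CH, LIF and PCL in detected genes of the BMP lists and the Id family (y axis, grouped by list), with filled points where both arrays were detected and open points for bounds. Most genes lie between -0.5 and 0.5, Fst spans -1.67 with PD to 1.32 with CH, Chrd reaches -1.12 with PD, and a gene with no point had no measurable comparison.

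The closest profiles over the 5 arrays were taken as the 3 genes with the smallest root mean square distance between array-centred log2 levels, among genes detected on all 5 arrays with a range of at least 0.5 times that of the Id gene. For Id1 they were Serf1 (distance 0.02), Ccdc32 (0.02) and Zfp810 (0.02) among 4617 candidates with a median distance of 0.25. For Id3 they were Gbf1, the integrin subunit Itgb1 and the chaperone cofactor Dnajc3, each at a distance of 0.04 among 5554 candidates with a median of 0.23. For Id2 they were Zfp979 (0.07), the amino acid transporter Slc7a6 (0.07) and the mitophagy receptor Fundc1 (0.08) among 3165 candidates with a median of 0.33, and here the Id2 level with PCL is one under the detection limit. None of the 9 genes belongs to the BMP lists. At most 25 genes of those lists could be among the 3165 to 5554 candidates, so this says nothing about the pathway. Id2 was detected on 4 arrays and so could not be listed for Id1 or Id3. Id1 and Id3 were candidates for each other and for Id2, and neither was among the closest. With 5 arrays and so many candidates such likeness is a description only.

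**Figure D4:**
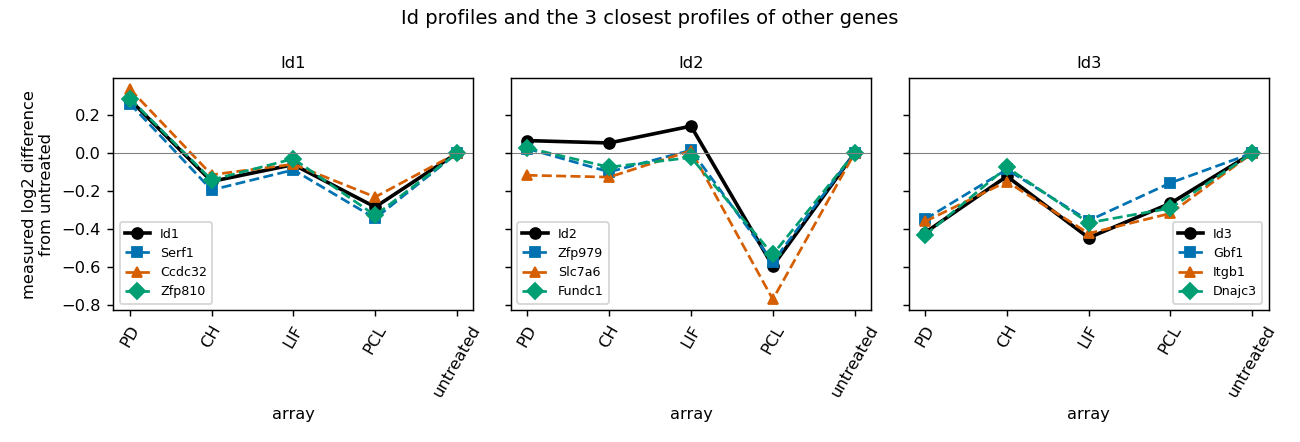
Measured log2 difference from the untreated array (y axis) on the PD, CH, LIF, PCL and untreated arrays (x axis) for Id1, Id2 and Id3 (black) and the 3 genes closest to each (dashed), where lines only join points of 1 gene. Id1 peaks with PD, Id2 drops with PCL only, where it was not detected, and Id3 is lowest with PD and LIF.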

How the data were processed

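The authors deposited 1 scanner table per array, exported with BeadStudio per the submitters' processing notes, which holds, per the file headers, a linear signal intensity, a bead standard error (another value on the same linear scale) and a detection p-value for each probe. They also deposited processed intensity values, whole numbers whose normalization is not given in the sources. Per the labels, 400 ng of RNA was amplified for 12 h and labelled with Cy-3.

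Signals were corrected with limma 3.58.1 (R 4.3.3) by normexp with negative controls inferred from the detection p-values, an offset of 16, quantile normalization and log2. The bead standard error was carried through this transformation. A difference with 1 array undetected is a bound against the lowest detected level of that array. The additive fit was tested on simulated data. Symbols came from the platform annotation, where 23978 probes had 1 symbol, 0 had several and 1719 had none; 0 symbols changed against RefSeq. Promoters came from a set of stretches before RefSeq gene starts, in which 2 of the 3 genes, Id2 and Id3, had an entry under their symbol.

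The members and gene lists were chosen with earlier results of these data known. Named were all Id probes, list genes that passed the fit or differed 2-fold, 3 control genes for the agents and the 3 closest profiles. Further genes were named from the lists, and these were not always the brightest. Alternatives were no background correction, offsets of 50 and 1, scaling to the 75th percentile, the authors' values, another reference, other filters, no intensity trend and 1 probe per gene. The authors' values were used with empty entries and values under 16 set to 16. The number of arrays limits the precision.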

Additional observations from a re-analysis of the deposited data

How the results depend on the processing

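No paired analysis was possible because each group has 1 array, and for the same reason no array could be left out within a group. All Id differences from untreated kept their sign with no background correction, offsets of 50 and 1 (the last chosen after seeing the data), scaling to a common 75th percentile and the authors' values. With scaling, however, Id1 with LIF and Id3 with CH were close to 0, at -0.004 and -0.005. Against the median of the other arrays, Id2 with CH changed to -0.01 and Id3 with CH to 0.30. The difference of Id3 with LIF ranged from -0.76 with an offset of 1 to -0.14 without background correction, and that of Id1 with PD from 0.11 to 0.40. In the authors' deposited values Id1 was 39, 25, 28 and 21 with PD, CH, LIF and PCL and 30 untreated, Id3 was 16, 23, 15 and 19 against 27, and Id2 was 20, 19, 22 and 6 against 18. For the alternative on the authors' values, empty entries and values under 16 were set to 16. Id2 with PCL and Id3 with LIF thus entered as 16, and the difference of Id2 with PCL from untreated was -0.17 there. The departure of Id2 computed from its undetected PCL value was -0.86, and -1.77 with an offset of 1. The 9 Id effects missed the threshold under every alternative in which they were fitted. Their direction held except the LIF effect of Id2, which was 0.031 in the authors' values, where its PCL value entered as 16. A fit without this floor was not run, so the cause was not tested. The effects of Chrd with PD and of Fst with PD and CH kept their direction under all 8 alternatives and lost the threshold on the authors' values, Chrd also without the intensity trend. The Id2 probe has no value in the fit on probes detected on all arrays.

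Counts over all probes moved more. Past the fit threshold, scaling to the 75th percentile gave 56 higher for PD, 39 higher and 30 lower for CH and 17 higher for LIF, against 94, 78, 69 and 30 as reported. Without the intensity trend there were 35 higher and 17 lower for CH and 13 higher and 5 lower for LIF, and without a filter 40 lower for CH. On the authors' values limma passed 0 higher and 0 lower for each agent (916, 890 and 663 at an unadjusted p under 0.05 for PD, CH and LIF). At least 2-fold with PD were 13 higher and 60 lower as reported, 4 and 14 without background correction, 4 and 28 with an offset of 50, 52 higher with scaling, and 59 and 131 in the authors' values. With CH they were 11 and 8 as reported, 3 and 2 without correction, 2 lower with an offset of 50, 43 higher with scaling, and 45 and 33 in the authors' values. With LIF they were 4 and 5 as reported, 1 and 2 without correction, 2 and 2 with an offset of 50, 11 higher with scaling, and 24 and 26 in the authors' values. With PCL they were 36 and 72 as reported, 10 and 18 without correction, 12 and 33 with an offset of 50, 62 higher with scaling, and 99 and 145 in the authors' values. Signal over background limits the Id genes: at these levels the size of a difference depends on the offset, the background correction and the scaling.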
